A study of Mus musculus with 289 samples.

Results

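The genes described here are 8 genes that astrocytes are known to use when they become reactive: the intermediate filament genes Gfap, Vim, Nes and Synm, the surface and membrane genes Cd44 and S100a10, and the signalling genes Stat3 and Socs3. They were chosen by name, matched to their Ensembl identifiers, and are 8 of 55487 gene rows found in 1 or more of 5 count tables; each has a row in all 5. Each library was 1 astrocyte, sucked out of the brain of a Cas9 transgenic mouse into a glass tip and sequenced by Smart-seq2, a full-length method without molecular identifiers. The cerebral cortex had been injected with an astrocyte-specific lentivirus (Mok-LV in the labels) that carried guide RNAs (gRNAs) for Sox9, for Trps1 or for both (dual gRNA), or a control gRNA. Other cells were labelled no-gRNA and Adult, with no day, and the sources used here do not say whether their animals received a virus. In-slice controls, in which the tip took no cell, gave the background.

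Values were at hand for 242 astrocytes and 12 in-slice controls, 254 of 289 labelled samples. The other 35, all of batch 4, were not analysed here: 28 of Trps1 gRNA (12 of day 21 and 16 of day 7), 4 of Sox9 gRNA, 2 of control gRNA and 1 of dual gRNA. Batch 1 held 4 dual gRNA cells labelled days 17 to 20, 10 control gRNA cells labelled days 8 to 16, and 31 no gRNA cells. Batch 2 held 8 dual gRNA cells of day 21, 7 control gRNA cells of day 21, 8 control gRNA cells of day 7 and 1 in-slice control. Batch 3 held 14 dual gRNA cells of day 7, 21 Sox9 gRNA cells of day 7, 6 no gRNA cells and 4 in-slice controls. Batch 4 held 13 dual gRNA cells and 16 Sox9 gRNA cells of day 21, 15 Trps1 gRNA cells of day 7, 15 control gRNA cells of day 21 and 2 in-slice controls. Batch 5 held 21 Sox9 gRNA cells and 30 Trps1 gRNA cells of day 21, 23 no gRNA cells and 5 in-slice controls. The labels name no animal, so the cells of 1 gRNA, day and batch formed 1 pool, pools were compared only within a batch, and no p-value could be given. Levels are given as CPM, the usual scaling of a pool's reads of a gene by its total of reads in genes, and intervals are exact 95% intervals that cover counting error only, not the spread between animals or cells.

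Intermediate filaments are the rope-like part of the cytoskeleton, and GFAP is the filament protein by which astrocytes are usually recognised. After injury astrocytes raise GFAP and vimentin, and can take up nestin and synemin, filament proteins of immature glia. Cytokines that signal through the receptor subunit gp130 activate Janus kinases and the transcription factor STAT3, which is known to bind the Gfap promoter and to induce SOCS3, its own feedback inhibitor. CD44 is the hyaluronan receptor of the cell surface, tied to the actin cortex by ezrin, radixin and moesin, and S100A10 is the small partner of annexin A2 at the membrane.

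The 242 astrocytes had between 15959 and 4656612 reads in genes and a median of 4223 genes with a read. The no gRNA cells of batch 3 were shallow, with a median of 236508 reads and 3 of 6 cells under 100000. Each of 10 astrocyte markers had a read in all 16 astrocyte pools, and their summed level was 1494 to 16135 CPM, against 63.9 to 1920 CPM in the in-slice controls. The lowest pool, dual gRNA of batch 4, thus lay below the highest in-slice value. Markers of microglia and macrophages, 12 genes, summed to 5561 to 12770 CPM in the 13 pools with a gRNA, against 267 to 335 CPM in the 3 pools with none. All 12 had a read in every pool with a gRNA and in the no gRNA pools of batches 1 and 5, and in the no gRNA pool of batch 3 Cx3cr1, C1qb, C1qc and Trem2 were at 0. The microglia and macrophage markers stood at 2668 to 27641 CPM in the in-slice controls, so RNA of these genes was also taken up where the tip took no astrocyte. Over the astrocyte pools, markers of neurons summed to 869 to 4881 CPM, and of oligodendrocytes to 188 to 6737 CPM. Those of endothelium summed to at most 205 CPM, of mural cells and fibroblasts to at most 271 CPM and of ependyma to at most 92.5 CPM. By pooled reads, Sox9 itself was higher than in the control gRNA or no gRNA cells of the batch in 5 of the 7 pools labelled for a Sox9 gRNA. It was at 1860 CPM in dual gRNA cells and 209 CPM in control gRNA cells of batch 1, and at 905 CPM in dual gRNA cells and 491 CPM in control gRNA cells of day 21 of batch 2. Batch 3 had 1492 CPM in dual gRNA cells, 1303 CPM in Sox9 gRNA cells and 382 CPM in no gRNA cells. Batch 4 had 133 CPM in dual gRNA cells, 189 CPM in Sox9 gRNA cells and 177 CPM in control gRNA cells, and batch 5 had 233 CPM in Sox9 gRNA cells and 309 CPM in no gRNA cells. Of the 5 higher pools, dual gRNA had the lower cell median in batch 2 (162 against 510 CPM) and batch 3 (207 against 254 CPM). The highest dual gRNA cells there had 3697 and 14893 CPM. The median was higher in dual gRNA cells of batch 1 (1862 against 145 CPM) and in Sox9 gRNA cells of batch 3 (412 against 254 CPM) and batch 4 (133 against 0.975 CPM). Trps1 was higher by pooled reads in 4 of the 6 pools labelled for a Trps1 gRNA. These were dual gRNA of batch 1 (112 CPM, against 4.61 CPM in control gRNA), dual gRNA of batch 3 (294 CPM, against 109 CPM in no gRNA) and the dual gRNA and Trps1 gRNA pools of batch 4 (16.7 and 102.7 CPM, against 3.35 CPM in control gRNA). The cell medians were 45.9 against 0 CPM in batch 1, 27.4 against 22.4 CPM in batch 3 and 0 in each of these pools of batch 4. The highest cell had 3454 CPM in dual gRNA of batch 3 and 2379 CPM in Trps1 gRNA of batch 4. The 2 pools with less Trps1 were dual gRNA of batch 2 (19.4 CPM, against 107 CPM in control gRNA of day 21) and Trps1 gRNA of batch 5 (57.6 CPM, against 91.9 CPM in no gRNA). Reads over a whole gene do not show whether a gRNA edited it, so the gRNA names below are those of the labels. In batch 3 a row named for a Sox9 guide had reads in 12 of 14 dual gRNA cells, 13 of 21 Sox9 gRNA cells and 0 of 6 no gRNA cells. A row named for a Trps1 guide had reads in 9 of 14 dual gRNA cells and, at no more than 2 reads, in 4 of 21 Sox9 gRNA cells. In batch 5 a row named DsRed had reads in 21 of 21 Sox9 gRNA cells, 26 of 30 Trps1 gRNA cells and, at no more than 2 reads, in 5 of 23 no gRNA cells. In batch 2 rows named for Sox9 guides had reads in only 3 and 1 of 8 dual gRNA cells. In-slice controls held such reads as well. DsRed had reads in 2 of 5 of batch 5 (up to 492) and 2 of 2 of batch 4 (up to 671), and the Sox9 guide row of batch 3 had 1 read in 1 of 4.

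To show where STAT3 could act on these genes, the promoter windows of 7 of the 8 genes were read from RefSeq (GRCm38.p6): 250 bases before to 50 bases after the annotated start; S100a10 had no entry. The palindrome TTCNNNGAA, the usual letters of a STAT site, was found on either strand in 2 of the 7, Gfap and Socs3, and in 8.30% of 32851 promoter windows. The SOX letters ACAAAG, either strand, were in Stat3 and Socs3, and in 18.7% of all windows, and ACAATG was in none of the 7 and in 12.6% of all. The letters AGATAA, of the kind TRPS1 binds, were in Cd44 and in 11.2% of all windows. TGATAA was in 9.05% and TGANTCA, the AP-1 letters, in 7.81% of all windows, and neither was in any of the 7. A match is a description of the letters and not a bound site. The windows of the 3 genes on which the STAT3 results turn are printed 5′ to 3′ on the strand of the gene, with the matches in capitals. They are Gfap on the minus strand of chromosome 11 (chr11:102897151-102897450), Socs3 on the minus strand (chr11:117969317-117969616) and Stat3 on the minus strand (chr11:100939491-100939790).
Gfap promoter: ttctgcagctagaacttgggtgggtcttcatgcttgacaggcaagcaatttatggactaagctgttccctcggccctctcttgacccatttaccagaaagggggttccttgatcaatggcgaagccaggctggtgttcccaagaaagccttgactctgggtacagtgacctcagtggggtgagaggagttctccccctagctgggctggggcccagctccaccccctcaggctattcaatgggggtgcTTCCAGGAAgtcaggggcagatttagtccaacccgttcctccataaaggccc
Socs3 promoter: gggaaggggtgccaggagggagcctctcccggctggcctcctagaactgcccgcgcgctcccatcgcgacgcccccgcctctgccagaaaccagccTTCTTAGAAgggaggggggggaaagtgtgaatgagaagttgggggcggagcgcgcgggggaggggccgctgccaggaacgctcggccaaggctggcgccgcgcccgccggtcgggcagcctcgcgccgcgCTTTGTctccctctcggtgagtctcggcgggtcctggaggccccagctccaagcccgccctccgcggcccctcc
Stat3 promoter: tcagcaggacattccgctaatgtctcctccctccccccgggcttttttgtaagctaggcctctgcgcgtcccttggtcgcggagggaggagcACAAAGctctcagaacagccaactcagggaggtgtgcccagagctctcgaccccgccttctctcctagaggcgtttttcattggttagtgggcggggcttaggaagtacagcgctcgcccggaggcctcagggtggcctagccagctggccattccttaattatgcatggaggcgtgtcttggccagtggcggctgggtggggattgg
The STAT letters of Gfap, TTCCAGGAA at 102897194 to 102897202, lie 63 bases before the start of the transcript Gfap-201. They span the start of the longer Gfap-202, with their last base 6 bases past it. Those of Socs3, TTCTTAGAA, lie before the RefSeq start on which the window rests. They are 326 bases before Socs3-201, a transcript whose start in the gene annotation lies further downstream. The windows of Vim, Nes and Synm held none of the motifs searched. No readout of STAT3 binding was measured in these cells.

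On the RPKM scale, which divides CPM by exon length in kilobases and so allows genes to be compared, Gfap was the most abundant of the 8. Its median over the 16 astrocyte pools was 121 RPKM, with a range of 23.9 to 662. Socs3 followed with a median of 95.2 RPKM, then Vim with 23.2, Stat3 with 21.1, S100a10 with 12.2 and Cd44 with 8.08. Synm, at 0.649, and Nes, at 0.00871, were close to absent in most pools. At 10 CPM or more, Gfap was present in 126 of 242 astrocytes (52.1%, exact interval 45.6 to 58.5), Stat3 in 107, Socs3 in 105, Vim in 86, Cd44 in 54, S100a10 in 43, Synm in 25 and Nes in 8. Among the 12 in-slice controls, Gfap, Vim, Synm, Cd44 and Stat3 were each at 10 CPM or more in 1, and Nes, S100a10 and Socs3 in 0 (exact interval 0 to 26.5%). Synm shares 84 exonic bases with Ttc23 and 426 with Gm45102, and Stat3 shares 72 with Stat5a, all on the opposite strand, and since the sources used here do not say how strand was handled, those reads cannot be told apart.

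Gfap, at chr11:102887336-102900912 (minus strand, ENSMUSG00000020932), was high in the pools with a gRNA and low in those without in batches 1 and 3. In batch 1 the dual gRNA pool had 1365 CPM (1334 to 1397), the control gRNA pool 2792 CPM (2761 to 2824) and the no gRNA pool 101 CPM (97.2 to 104). The 4 dual gRNA cells had 77.8, 589, 926 and 3124 CPM. The control gRNA cells ran from 4.15 through a median of 1693 to 6552 CPM, and the no gRNA cells from 0 through 0.850 to 1111 CPM. In batch 3 it was at 749 CPM in dual gRNA cells, 889.6 CPM in Sox9 gRNA cells and 133 CPM in no gRNA cells, where all but 1 of the 439 reads came from a single cell. The cell medians were 167, 270.1 and 0 CPM in that order. In batch 5 the pools stood at 314 CPM for Sox9 gRNA, 827 CPM for Trps1 gRNA and 184 CPM for no gRNA. The Trps1 gRNA cells had a median of 607 and a highest of 3673 CPM, while the medians were 3.72 CPM in Sox9 gRNA cells and 0 in no gRNA cells. Gfap had a read in 12 of 21 Sox9 gRNA cells, 23 of 30 Trps1 gRNA cells and 11 of 23 no gRNA cells.

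Within the batches that had control gRNA cells, Gfap was lower in the pools labelled for a Sox9 gRNA. In batch 2 it was at 481 CPM in dual gRNA cells and 1116 CPM in control gRNA cells of day 21, and at 1463 CPM in control gRNA cells of day 7. The cell medians were 6.41 CPM for dual gRNA, 521 CPM for control gRNA of day 21 and 1600 CPM for control gRNA of day 7. In batch 4 it was at 209.8 CPM in dual gRNA cells, 166 CPM in Sox9 gRNA cells, 471 CPM in Trps1 gRNA cells of day 7 and 539.6 CPM in control gRNA cells. Medians over those cells were 0, 0.860, 30.5 and 230.2 CPM, in that order, and the highest cell of each pool lay between 2692 and 4333 CPM. Every pool therefore held at least 1 cell with abundant Gfap, and the pools differed in how many cells did. At 10 CPM or more it was in 4 of 13 dual gRNA cells, 5 of 16 Sox9 gRNA cells, 8 of 15 Trps1 gRNA cells and 9 of 15 control gRNA cells.

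Vim, the gene of vimentin (chr2:13573927-13582826, plus strand, ENSMUSG00000026728), was lowest with no gRNA in batch 1, as Gfap was, and highest with Trps1 gRNA in batches 4 and 5. In batch 1 it was at 315 CPM in dual gRNA cells, 645 CPM in control gRNA cells and 15.8 CPM in no gRNA cells. In batch 3 the dual gRNA pool had 385 CPM, the Sox9 gRNA pool 113 CPM and the no gRNA pool no read in 6 cells, where 3 reads would be 0.910 CPM. The Sox9 gRNA pool of batch 5 had 15.4 CPM (13.6 to 17.4), the Trps1 gRNA pool 141 CPM (137 to 146) and the no gRNA pool 18.8 CPM (16.9 to 21.0). Cells at 10 CPM or more numbered 3 of 21 for Sox9 gRNA, 14 of 30 for Trps1 gRNA and 4 of 23 for no gRNA. In batch 4 it was at 81.6 CPM in dual gRNA cells, 29.9 CPM in Sox9 gRNA cells and 107 CPM in control gRNA cells, all of day 21, while the 305 CPM of Trps1 gRNA cells are of day 7, so gRNA and day cannot be told apart. One control gRNA cell, at 1543 CPM, held 68.2% of that pool's Vim reads. In batch 2 the dual gRNA pool had 235 CPM and the control gRNA pool of day 21 had 93.8 CPM. Vim had a read in 3 of 8 dual gRNA cells and in 6 of 7 control gRNA cells. Among the latter were cells with a single read, at 0.564, 0.643 and 0.680 CPM, so the higher share of control gRNA cells rested on single reads. Control gRNA cells of day 7 had 571 CPM and a median of 531 CPM.

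**Figure D1:**
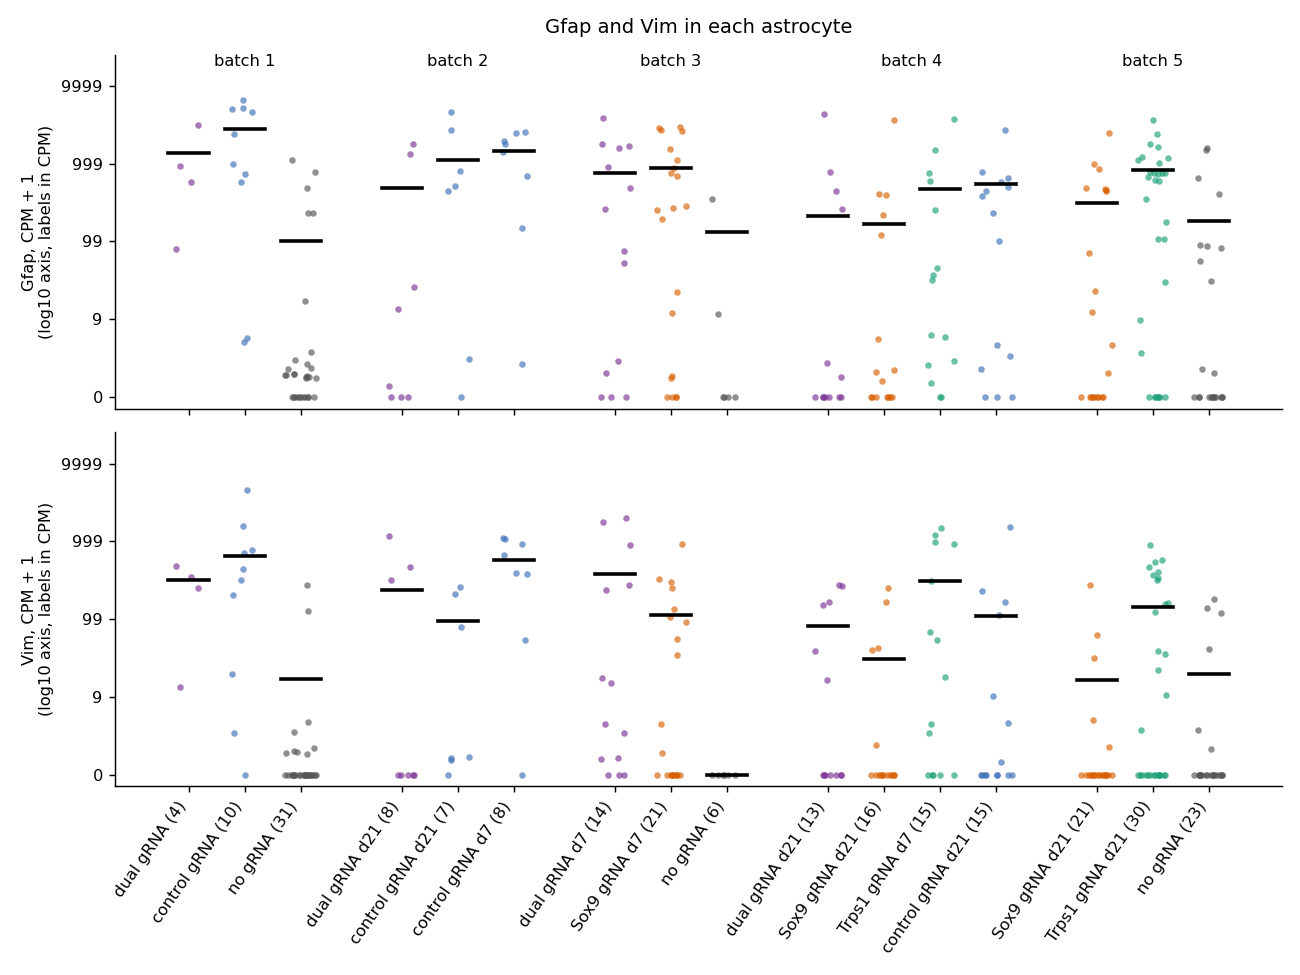
Gfap (upper panel) and Vim (lower panel) in each of the 242 astrocytes, by gRNA, day (d7, d21) and batch, with the number of cells in brackets; each point is 1 cell, in CPM + 1 on a log10 axis labelled in CPM, and the black line is the pooled CPM. In the no gRNA pools of batches 1, 3 and 5 the Gfap median lies at 0.850, 0 and 0 CPM, and the no gRNA pool of batch 3 has no Vim read.

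Nes (chr3:87971078-87980451, plus strand, ENSMUSG00000004891) encodes nestin and had a read in 14 of 242 astrocytes. It was at 40.9 CPM in dual gRNA cells of batch 3, with a read in 4 of 14 cells, of which 3 had 72.3, 188 and 309 CPM. It was at 0.699 CPM in Sox9 gRNA cells and 0 in no gRNA cells of that batch. The 102 CPM of the Trps1 gRNA pool of batch 4 came from 1 cell at 1190 CPM, and the 4.72 CPM of the Trps1 gRNA pool of batch 5 from 1 cell at 133 CPM. No gRNA cells of batch 1 were at 7.50 CPM, in 3 of 31 cells, and every other pool was at 0.440 CPM or below. Synm, the gene of synemin (chr7:67730160-67759742, minus strand, ENSMUSG00000030554), had a read in 43 of 242 astrocytes. It reached 121 CPM in dual gRNA cells of batch 3, against 11.3 CPM in Sox9 gRNA cells and 2.43 CPM in no gRNA cells, and 76.2% of the dual gRNA reads were those of 1 cell at 849 CPM. It was at 62.7 CPM in dual gRNA cells of batch 2, in 5 of 8 cells, and had no read in 7 control gRNA cells of day 21, where 3 reads would be 0.201 CPM. The other pools lay between 0 and 16.9 CPM.

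Cd44, the hyaluronan receptor (chr2:102811141-102901665, minus strand, ENSMUSG00000005087), was at 157 CPM in dual gRNA cells, 131 CPM in control gRNA cells and 51.6 CPM in no gRNA cells of batch 1. In batch 3 it was at 147 CPM in dual gRNA cells, in 3 of 14, at 64.2 CPM in Sox9 gRNA cells, in 9 of 21, and without a read in 6 no gRNA cells. The Sox9 gRNA pool of batch 5 had 36.5 CPM, the Trps1 gRNA pool 57.9 CPM and the no gRNA pool 3.46 CPM. The share of cells at 10 CPM or more was alike, with 4 of 21, 6 of 30 and 4 of 23 cells in that order. The batch 5 pools thus differed in how much Cd44 the positive cells held. In batch 4 it was at 31.4 CPM in dual gRNA cells, 7.09 CPM in Sox9 gRNA cells, 37.4 CPM in Trps1 gRNA cells and 69.9 CPM in control gRNA cells. A single cell gave 81.3%, 98.4%, 88.8% and 40.1% of those reads, in the same order. In batch 2 it was at 2.03 CPM in dual gRNA cells, 67.0 CPM in control gRNA cells of day 21, with 99.2% of the reads from 1 cell, and 223 CPM in control gRNA cells of day 7.

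S100a10 (chr3:93555080-93564643, plus strand, ENSMUSG00000041959) was without a read in the dual gRNA and no gRNA pools of batch 1, the no gRNA pool of batch 3 and the Sox9 gRNA pool of batch 4. In batch 4 the dual gRNA pool had 2.57 CPM, the Sox9 gRNA pool 0 (3 reads would be 0.172 CPM), the Trps1 gRNA pool 64.1 CPM and the control gRNA pool 29.6 CPM. It had a read in 2 of 13, 0 of 16, 5 of 15 and 7 of 15 of those cells. The control gRNA cells with a read included several at only 0.490 to 2.58 CPM, and 1 of the dual gRNA cells was at 0.648 CPM. The Trps1 gRNA cells with a read all had 29.8 CPM or more. In batch 2 S100a10 was at 12.4 CPM in dual gRNA cells and 76.8 CPM in control gRNA cells of day 21, and at 164 CPM in control gRNA cells of day 7. In batch 5 the order was unlike that of Gfap and Vim, with 17.2 CPM in Sox9 gRNA cells, 6.16 CPM in Trps1 gRNA cells and 22.3 CPM in no gRNA cells. Batch 3 had 8.98 CPM in dual gRNA cells and 40.6 CPM in Sox9 gRNA cells, and the 19.5 CPM of the batch 1 control gRNA pool were 1 cell at 263 CPM and another at 2.07 CPM.

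Stat3, the transcription factor (chr11:100885098-100939540, minus strand, ENSMUSG00000004040), had a read in 135 of 242 astrocytes. Batch 1 had 884 CPM in dual gRNA cells, 562 CPM in control gRNA cells and 89.6 CPM in no gRNA cells. The 4 dual gRNA cells had 1.39, 1080, 1162 and 1724 CPM. The control gRNA cells had a median of 154 CPM and a highest of 2057 CPM, and the no gRNA cells had a median of 0 and a highest of 592 CPM. In batch 3 the order differed, with 382 CPM in dual gRNA cells, 373 CPM in Sox9 gRNA cells and 782 CPM in no gRNA cells, where 1 cell gave 83.7% of the reads and 3 of 6 cells had none. In batch 4 it was at 78.8 CPM in dual gRNA cells, 16.2 CPM in Sox9 gRNA cells, 95.7 CPM in Trps1 gRNA cells and 148 CPM in control gRNA cells. Stat3 was at 10 CPM or more in 3 of 13 dual gRNA cells, 2 of 16 Sox9 gRNA cells, 5 of 15 Trps1 gRNA cells and 8 of 15 control gRNA cells. In batch 5 it was at 165 CPM in Sox9 gRNA cells, 206 CPM in Trps1 gRNA cells and 103 CPM in no gRNA cells. Batch 2 had 196 CPM in the dual gRNA pool, 207 CPM in the control gRNA pool of day 21 and 415 CPM in that of day 7.

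Socs3, the feedback inhibitor (chr11:117966079-117970047, minus strand, ENSMUSG00000053113), was highest in the same pool as Stat3 in batches 2 and 4 and in different pools in batches 1, 3 and 5. In batch 1 Socs3 had 469 CPM in dual gRNA cells, 309 CPM in control gRNA cells and 845 CPM in no gRNA cells, so it was highest in the pool where Stat3 was lowest. Over 1000 CPM lay 1 of 10 control gRNA cells and 9 of 31 no gRNA cells, and the no gRNA cells ran from 0 through a median of 8.62 to 4489 CPM. In batch 2 it was at 260.0 CPM in dual gRNA cells, in 4 of 8. The 7 control gRNA cells of day 21 held 1 read in all, which is 0.0670 CPM (0.00170 to 0.373). Those of day 7 stood at 290.2 CPM, with a read in 7 of 8. In batch 3 it was at 758 CPM in dual gRNA cells, 451 CPM in Sox9 gRNA cells and 251 CPM in no gRNA cells. Batch 4 had 72.6 CPM in dual gRNA cells, 171 CPM in Sox9 gRNA cells, 164 CPM in Trps1 gRNA cells and 497 CPM in control gRNA cells, where 1 cell at 3070 CPM gave 60.5% of the reads. Batch 5 had 351 CPM in Sox9 gRNA cells, 90.3 CPM in Trps1 gRNA cells and 132 CPM in no gRNA cells, so Socs3 was lowest in the pool where Gfap and Vim were highest.

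**Figure D2:**
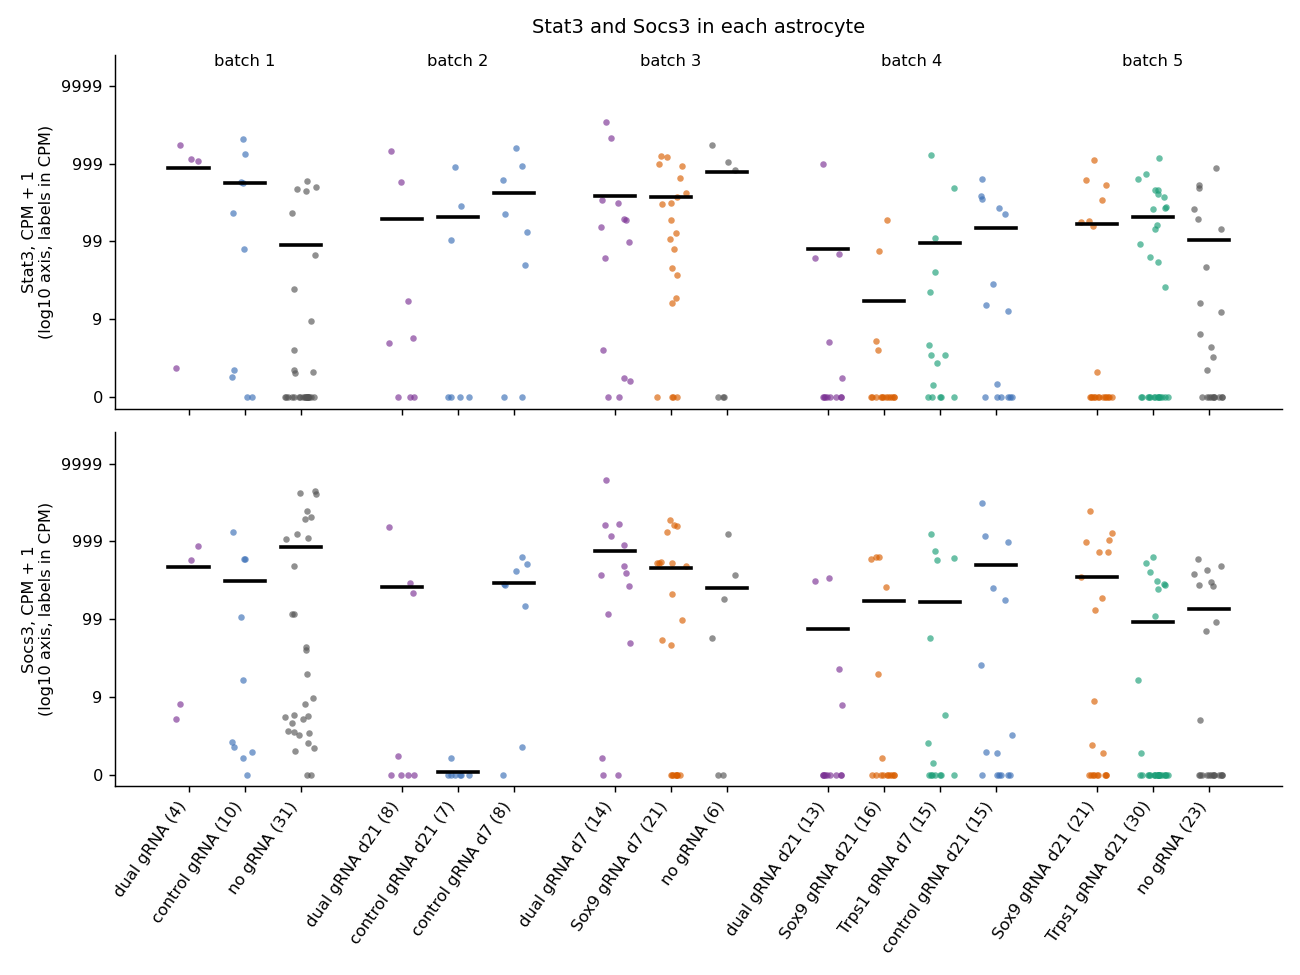
Stat3 (upper panel) and Socs3 (lower panel) in each of the 242 astrocytes, drawn as for Gfap and Vim: 1 point per cell, CPM + 1 on a log10 axis labelled in CPM, black lines for pooled CPM. The Socs3 line of the control gRNA day 21 pool of batch 2 lies at the bottom of the axis, with 1 read in 7 cells.

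**Figure D3:**
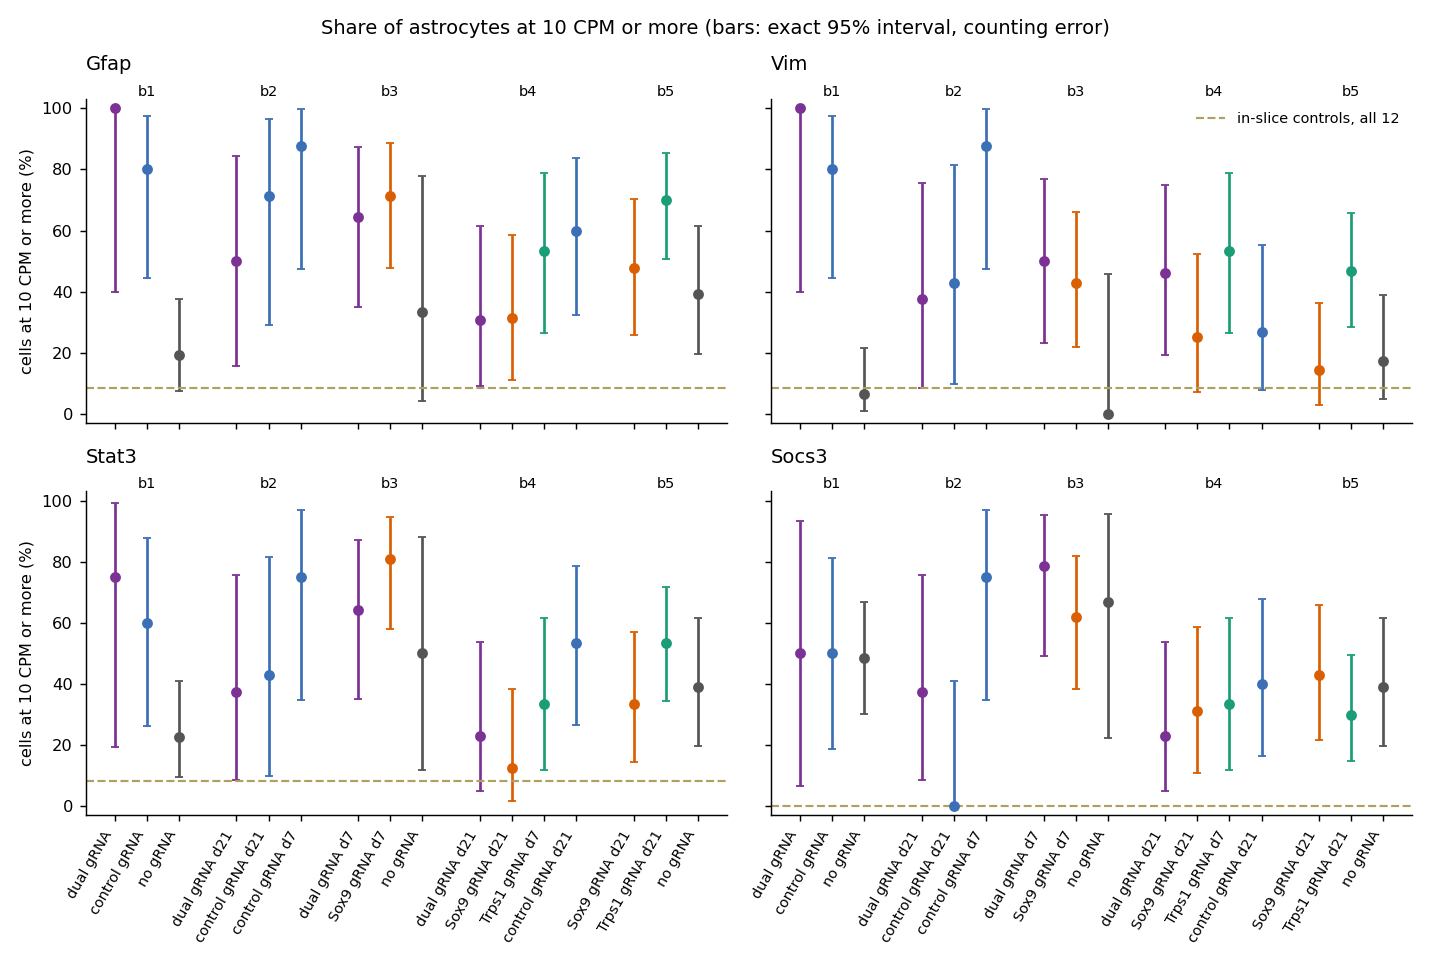
Share of astrocytes at 10 CPM or more of Gfap, Vim, Stat3 and Socs3 in percent, by pool and batch (b1 to b5), with exact 95% binomial intervals for counting error; the dashed line is the share among all 12 in-slice controls. The Gfap share was 70.0% in Trps1 gRNA cells and 39.1% in no gRNA cells of batch 5, with overlapping intervals (50.6 to 85.3 and 19.7 to 61.5).

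Ranked within batch, the 16 pools gave 88 pairs of neighbours over the 8 genes. The counting intervals of neighbours overlapped in 18 of them, among which 7 were of Nes, 6 of Synm and 0 of Gfap and Cd44. The ranges of the cells, from lowest to highest, overlapped in all 88. Most pools held cells with few or no reads of a gene, so such ranges overlap readily. They cannot show whether any step in the order lay outside the spread between cells. With the highest cell of each pool left out, 66 of the 88 steps kept their order, among them 10 of 11 for Gfap, Vim, Cd44 and Socs3, 8 for Stat3 and 2 for Nes.

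To ask how far the genes stand from others, every gene at 5 CPM or more in either pool was compared as the log2 ratio of pooled CPM + 5, which understates the change of low genes. A gene was counted as higher or lower past a 2-fold ratio, and the share of all genes past the same ratio is given as the background. The fold printed for a gene is the ratio of CPM without the 5 added, with 3 reads set for a pool that had none. The share of genes said to reach it is the share that reached its log2 ratio of CPM + 5. Since 1 cell can carry a pool, counts are also given for genes past 2-fold both with all cells and with the highest cell of each pool left out, called both measures below.

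**Figure D4:**
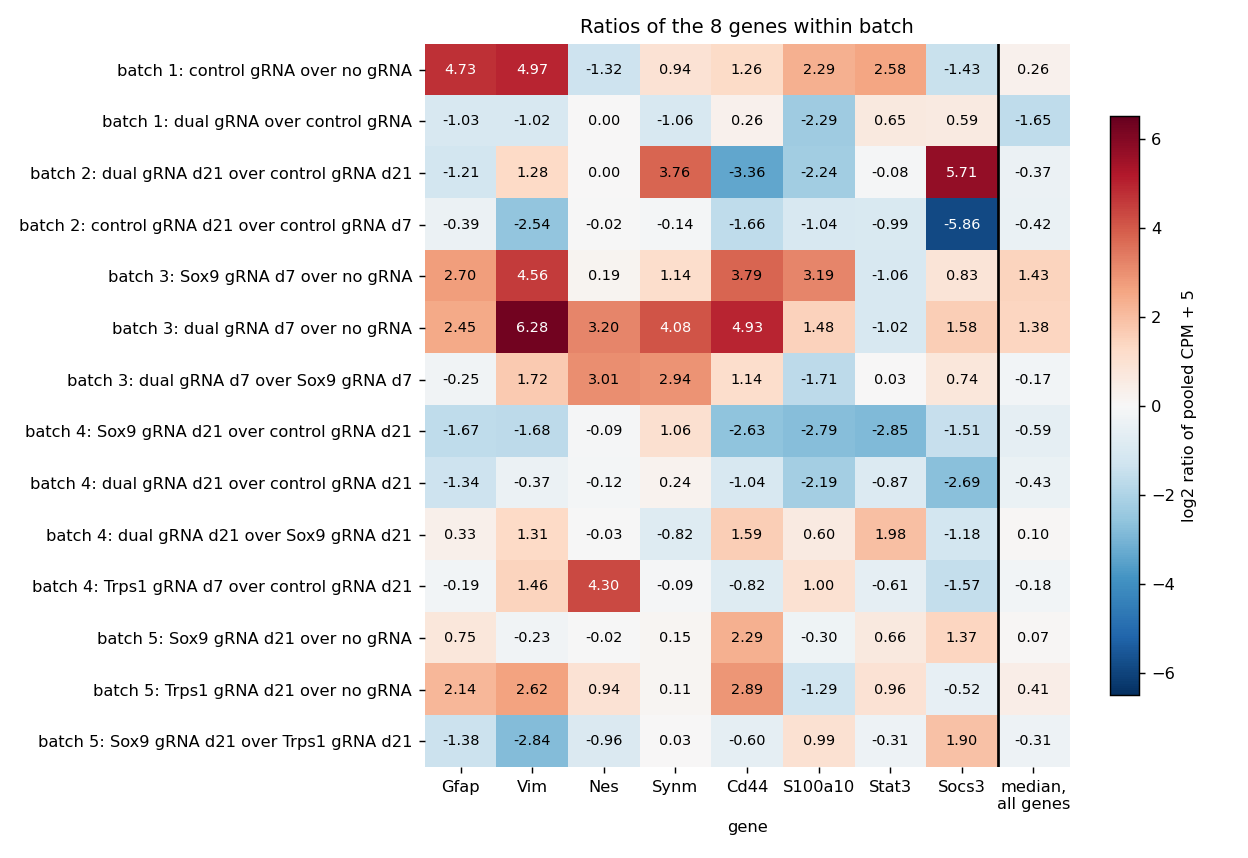
Log2 ratio of pooled CPM + 5 for the 8 genes (columns) in the 14 comparisons within a batch (rows, d7 and d21 for days), with the median over all genes tested in the last column; red is higher and blue lower in the pool named first. Gfap and Vim are red in the rows of control gRNA over no gRNA (4.73 and 4.97) and Trps1 gRNA over no gRNA (2.136 and 2.62).

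Gfap, Vim and Stat3 were higher in control gRNA cells than in no gRNA cells of batch 1, with and without the highest cells. In control gRNA cells against no gRNA cells, 5 of the 8 were higher (Gfap, Vim, Cd44, S100a10 and Stat3) and 2 lower (Nes and Socs3), where 37.2% of 12221 genes were higher and 30.1% lower. The median was 1.78 for the 8 and 0.26 for all genes. Gfap was 27.8-fold higher (log2 ratio 4.73, 4.66 to 4.79), a ratio reached by 1.21% of the genes, and Vim 40.8-fold higher (4.97), reached by 0.925%. Stat3 was 6.28-fold higher and Socs3 was 2.73-fold lower, which 10.1% and 20.8% of the genes reached in those directions. Without the highest cells Gfap (5.12), Vim (5.54), Stat3 (2.128) and Socs3 (-2.21) were still past 2-fold, where 17.6% of all genes were higher and 17.8% lower by both measures, and Cd44 (0.60), S100a10 (0.06) and Nes (-0.65) were not. Of the other reactive astrocyte genes, 15 of 16 tested were higher and 0 lower, 12 and 0 by both measures. Among them were the interferon-induced GTPase Gbp2, at 2225 CPM in control gRNA cells and 0.377 CPM in no gRNA cells, and the chemokine Cxcl10, at 1275 and 3.17 CPM. Of the commonly cited STAT3 targets 9 of 14 were higher and 2 lower, but 4 and 2 by both measures. The cyclin Ccnd1 was at 309 CPM in control gRNA cells and 34.8 CPM in no gRNA cells. The immediate early gene Fos was at 349 CPM in control gRNA cells and 8222 CPM in no gRNA cells. Of the gp130 cytokines, receptors and kinases 4 of 11 were higher and 4 lower, 2 and 3 by both measures. The oncostatin M receptor Osmr was at 143 CPM in control gRNA cells and 22.5 CPM in no gRNA cells. Moesin (Msn), which links CD44 to actin, was at 378 CPM in control gRNA cells and 18.4 CPM in no gRNA cells. Several of these genes, Cxcl10 and Msn among them, are also known from microglia.

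The microglia and macrophage markers moved with this comparison and with all others against no gRNA cells. They summed to 10358 CPM in control gRNA cells and 335 CPM in no gRNA cells of batch 1. The sums of batch 3 were 6988 CPM in dual gRNA cells, 9978 CPM in Sox9 gRNA cells and 292 CPM in no gRNA cells, and those of batch 5 were 9976 CPM in Sox9 gRNA cells, 7441 CPM in Trps1 gRNA cells and 267 CPM in no gRNA cells. The comparisons were therefore repeated with only the cells under 1000 CPM of these markers in both pools, a limit chosen after the data were seen. In batch 1 this left 4 of 10 control gRNA cells and 27 of 31 no gRNA cells, with 2 and 3 cells between 500 and 2000 CPM. Gfap was then at 2065 CPM in control gRNA cells and 95.5 CPM in no gRNA cells (log2 ratio 4.36), and Vim at 841 and 11.96 CPM (5.64). Stat3 was at 254 CPM in control gRNA cells and 99.6 CPM in no gRNA cells (1.31), and the lower Socs3 was no longer past 2-fold (-0.32). Over these 4 control gRNA cells Gfap ran from 4.15 to 6552 CPM and Vim from 202 to 4565 CPM. The part of microglial RNA in the higher Gfap and Vim of batch 1 was not tested.

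In batch 3 more genes were higher than lower against the shallow no gRNA cells. Dual gRNA cells had 7 of the 8 higher and Stat3 lower, where 60.8% of 11266 genes were higher and 16.8% lower, and the median was 2.82 for the 8 and 1.38 for all. Sox9 gRNA cells had 5 of 7 tested higher (Gfap, Vim, Synm, Cd44 and S100a10) and Stat3 lower, where 63.5% of 11896 were higher and 13% lower, with medians of 2.695 and 1.43. Without the highest cells 6 of 8 and 4 of 7 were still higher and 0 lower, against 39% higher and 5.29% lower of all genes for dual gRNA, and 48.2% and 3.22% for Sox9 gRNA. The 5 of 7 with Sox9 gRNA lie near the background. By pooled reads Vim stood beyond it. In CPM it was 423-fold higher in dual gRNA cells than 3 reads over the 6 no gRNA cells would give. The log2 ratio of CPM + 5 was 6.28, which 0.107% of the genes reached. In Sox9 gRNA cells Vim was 124-fold higher in CPM than those 3 reads, with a log2 ratio of 4.56, which 1.57% of the genes reached. The 3 reads allow for counting error only, and 3 of the 6 no gRNA cells had under 100000 reads. Some Sox9 gRNA cells had no Vim read either, so neither fold is a firm minimum. Of the other reactive astrocyte genes, 19 of 20 were higher and 0 lower with dual gRNA, and 18 of 20 higher and 1 lower with Sox9 gRNA. By both measures 7 were higher and 0 lower with dual gRNA, and 12 higher and 1 lower with Sox9 gRNA. Serpina3n was at 255 CPM in Sox9 gRNA cells and 801 CPM in no gRNA cells. The lower Stat3 rested on 1 no gRNA cell, and without the highest cells its log2 ratio was 0.22 for dual gRNA and 0.67 for Sox9 gRNA. In cells under 1000 CPM of the microglia and macrophage markers, 7 of 14 dual gRNA cells, 6 of 21 Sox9 gRNA cells and all 6 no gRNA cells, the Vim ratio was 6.95 for dual gRNA and 3.57 for Sox9 gRNA. That of Gfap was 2.79 for dual gRNA and 2.09 for Sox9 gRNA. These Gfap ratios rested on few cells. With dual gRNA, 5 of 7 had a Gfap read (median 1.89, highest 3811 CPM). With Sox9 gRNA it was 3 of 6 (median 0.418, highest 2742 CPM), and with no gRNA 2 of 6 (median 0, highest 351 CPM). Between 500 and 2000 CPM of the microglia and macrophage markers lay 2, 5 and 1 of the cells, in the same order. The 2 comparisons share the no gRNA cells.

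In batch 5 Trps1 gRNA cells and Sox9 gRNA cells could be set against the same no gRNA cells. With Trps1 gRNA, Gfap, Vim and Cd44 were higher and S100a10 lower, 3 and 1 of 7 tested, where 30.3% of 12708 genes were higher and 14.3% lower. The median was 0.96 for the 7 and 0.41 for all genes. Gfap was 4.49-fold higher (log2 ratio 2.136), which 6.33% of the genes reached, Vim 7.49-fold (2.62, 3.28%) and Cd44 16.7-fold (2.89, 2.16%). Without the highest cells the ratios were 2.47, 2.89 and 2.55, where 18.9% of all genes were higher and 8.84% lower by both measures. Stat3 was 1.99-fold higher, just under the limit (0.96). Under 1000 CPM of microglial markers lay 11 of 30 Trps1 gRNA cells and 22 of 23 no gRNA cells, with 7 and 1 between 500 and 2000 CPM. Over these, Gfap was at 1078 CPM in Trps1 gRNA cells and 193 CPM in no gRNA cells (2.45). Vim was at 183 and 19.7 CPM (2.93), and Cd44 at 4.40 and 3.62 CPM (0.12), in the same order. Gfap and Vim were past 2-fold over these cells and Cd44 was not, and the part of microglial RNA in the values was not tested. Of the other reactive astrocyte genes 16 of 19 were higher and 1 lower, 11 and 0 by both measures, with a median of 1.47. The complement gene C4b was at 131 CPM in Trps1 gRNA cells and 16.8 CPM in no gRNA cells, and the protease inhibitor gene Serpina3n at 255 and 106 CPM. Of the STAT3 targets 10 of 12 were higher and 0 lower, 6 and 0 by both measures, among them the survival gene Bcl2l1, at 127 CPM in Trps1 gRNA cells and 18.7 CPM in no gRNA cells. The Janus kinase gene Jak1 was at 295 CPM in Trps1 gRNA cells and 73.0 CPM in no gRNA cells.

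In Sox9 gRNA cells of batch 5, Gfap and Vim were within 2-fold of no gRNA cells by pooled reads. Cd44 and Socs3 were higher and none lower, 2 and 0 of 7 tested, where 24.3% of 12287 genes were higher and 20.5% lower. The median was 0.66 for the 7 and 0.07 for all. Gfap was 1.70-fold higher (log2 ratio 0.75) and Vim stood at 15.4 and 18.8 CPM (-0.23). Cd44 was 10.5-fold higher (2.29, reached by 4.92% of the genes) and Socs3 2.65-fold higher (1.37, 15.4%), and without the highest cells the ratios were 1.799 and 1.23, where 13.7% of all genes were higher and 14% lower by both measures. Only 4 of 21 Sox9 gRNA cells were under 1000 CPM of microglial markers, with 2 between 500 and 2000 CPM. Over those 4 cells the values differed from those of the pool. Gfap was at 2.44 CPM, against 193 CPM in 22 no gRNA cells (-4.73), and Vim at 53.1 CPM, against 19.7 CPM (1.23). S100a10 (1.72) and Socs3 (1.98) were also higher and Stat3 (-1.24) lower past 2-fold, and Cd44 had no read. Of these 4 cells, Gfap, Vim, S100a10 and Stat3 each had a read in 1 only, and Socs3 in all 4. The Vim and S100a10 values were thus 1 cell at 275 CPM and 1 at 244 CPM. Serpina3n was at 2.75 CPM in Sox9 gRNA cells and 106 CPM in no gRNA cells, and among the other reactive astrocyte genes 4 of 11 were higher and 4 lower, 3 and 2 by both measures. Of the gp130 list 5 of 9 were higher and 0 lower, 3 and 0 by both measures, with Jak1 at 192 and 73.0 CPM.

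Set directly against each other, the Sox9 gRNA pool had less Gfap and Vim and more Socs3 than the Trps1 gRNA pool of batch 5. These were 2 lower and 1 higher of 7 tested, where 28.3% of 12709 genes were lower and 15.7% higher. The median was -0.31 for the 7 and for all genes. Vim was 9.17-fold lower (log2 ratio -2.84), which 1.57% of the genes reached, Gfap 2.63-fold lower (-1.38, 17.3%) and Socs3 3.88-fold higher (1.90, 4.41%). All 3 were past 2-fold without the highest cells, where 18.4% of all genes were lower and 7.41% higher by both measures. Of the other reactive astrocyte genes 13 of 17 were lower and 0 higher, 8 and 0 by both measures, with Serpina3n at 2.75 CPM in Sox9 gRNA cells and 255 CPM in Trps1 gRNA cells. S100b, a calcium-binding protein gene of mature astrocytes, was at 84.8 CPM in Sox9 gRNA cells and 299 CPM in Trps1 gRNA cells, and 7 of 12 STAT3 targets were lower and 0 higher, 4 and 0 by both measures. Summed microglial markers were 9976 CPM in Sox9 gRNA cells and 7441 CPM in Trps1 gRNA cells, and their part in this comparison was not tested.

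The titles of the batch 5 cells fall into series, and the Trps1 gRNA series differed in Gfap. The series 21T, 21T2 and 21T3 had 62.8 CPM in 4 of 9 cells, 965 CPM in 8 of 10 and 1039 CPM in 11 of 11. Without gRNA, the series AG had 160.4 CPM in 3 of 11 cells and 2AG had 204 CPM in 8 of 12. With 21T alone Gfap was lower than in no gRNA cells (log2 ratio -1.48) and also lower than in Sox9 gRNA cells, which then stood at 2.23 over it. The higher Gfap of the Trps1 gRNA pool was thus carried by 21T2 and 21T3. Vim did not split in this way, with 146, 163 and 121 CPM in 21T, 21T2 and 21T3. Cd44 stood at 2.801, 3.98 and 127 CPM, so nearly all of its reads were those of 21T3. Series also differed within 2 Sox9 gRNA pools: Gfap was at 520.2 CPM in 7S and 1496 CPM in 7S2 of batch 3, and at 362 CPM in 21S and 52.2 CPM in 21S2 of batch 4. What the series mark is not said in the labels.

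**Figure D5:**
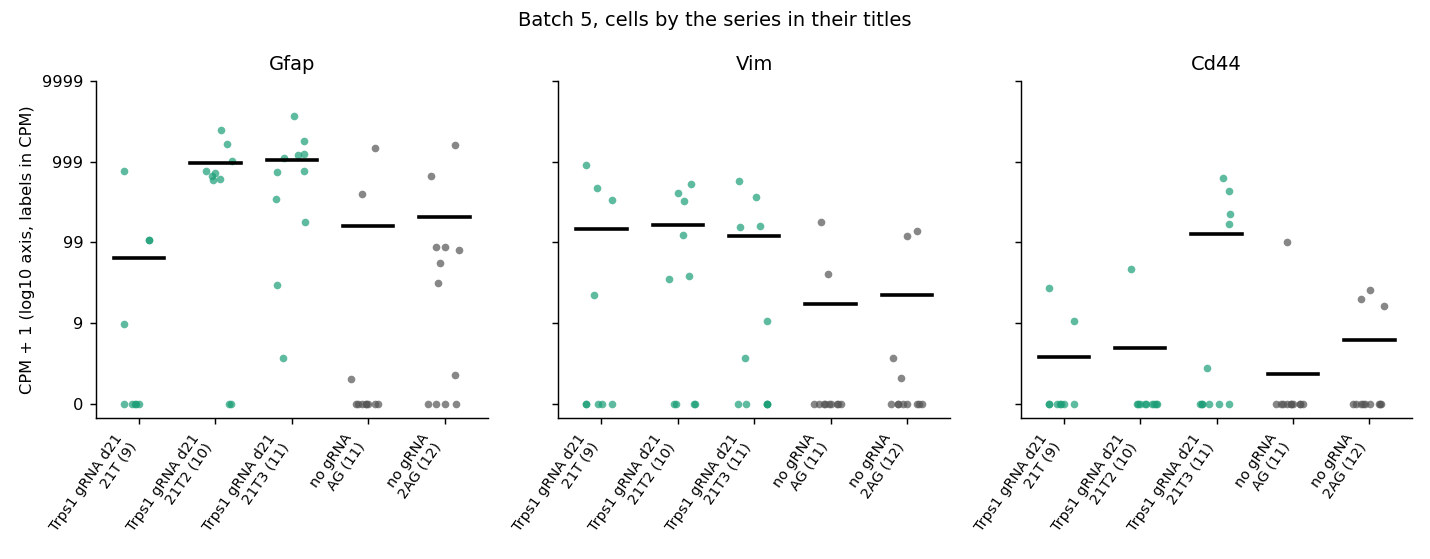
Gfap, Vim and Cd44 in each cell of batch 5 by the series in the titles of the Trps1 gRNA (21T, 21T2, 21T3) and no gRNA (AG, 2AG) cells, with the number of cells in brackets; points are cells in CPM + 1 on a log10 axis labelled in CPM, lines the pooled CPM. Gfap is low in 21T (62.8 CPM) and high in 21T2 and 21T3 (965 and 1039 CPM), Vim lies between 121 and 163 CPM in all 3, and Cd44 is high in 21T3 alone.

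Gfap was more than 2-fold lower in dual gRNA cells than in control gRNA cells of the same batch in each of the 3 batches that had both. The log2 ratio was -1.03 in batch 1, -1.21 in batch 2 and -1.34 in batch 4, and -2.45, -1.68 and -1.16 without the highest cells. With each cell weighted equally the ratio in batch 1 was -0.32, and with median-of-ratios size factors that in batch 2 was -0.82, both short of 2-fold. Ratios at least as low were common, however, among all genes: 63.1%, 37.8% and 26.03% reached them in batches 1, 2 and 4. In batch 1, Gfap, Vim, Synm and S100a10 were lower, 4 of 7 tested, and 0 were higher, where 63.8% of 10332 genes were lower and 22.3% higher. The median was -1.02 for the 7 and -1.65 for all genes. With each cell weighted equally the count was 3 higher (Cd44, Stat3 and Socs3) and 0 lower. Without the highest cells Gfap alone was still lower, where 30.9% of all genes were lower and 4.58% higher by both measures. The 4 dual gRNA cells were therefore no lower in these genes than in most others, and their day labels, 17 to 20, differ from the 8 to 16 of control gRNA cells, so day and gRNA cannot be told apart. The day in the labels of batch 1 climbs by 1 with each sample and was not used. Gbp2 was at 551 CPM in dual gRNA cells and 2225 CPM in control gRNA cells of batch 1, and C4b at 534 and 109.9 CPM. In batch 2, Vim, Synm and Socs3 were higher and Gfap, Cd44 and S100a10 lower, 3 and 3 of 7, where 33.9% of 9185 genes were higher and 41.7% lower. The median was -0.08 for the 7 and -0.37 for all. Without the highest cells the higher Synm (2.76) and Socs3 (4.17) and the lower Gfap and S100a10 (-2.02) were still past 2-fold, where 11.8% of all genes were higher and 14.5% lower by both measures. The log2 ratio of Socs3 was 5.71, which 0.631% of the genes reached, and that of Synm 3.76, which 5.62% reached. Ezrin (Ezr), a linker of CD44, was at 282 CPM in dual gRNA cells and had no read in control gRNA cells, and C4b was at 46.8 and 269 CPM.

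In batch 4 both pools with a Sox9 gRNA were below control gRNA cells in Gfap, Cd44 and S100a10. With Sox9 gRNA alone, 6 of 7 tested were lower (Gfap, Vim, Cd44, S100a10, Stat3 and Socs3) and Synm higher, where 40.7% of 11550 genes were lower and 23.2% higher, and the median was -1.68 for the 7 and -0.59 for all. Gfap (-1.46), Cd44 (-3.35), S100a10 (-1.59) and Stat3 (-2.89) were also past 2-fold without the highest cells, 4 of 7, where 21.3% of all genes were lower and 8.02% higher by both measures. In CPM, Stat3 was 9.13-fold lower, Cd44 9.87-fold, S100a10 173-fold with 3 reads set for the Sox9 gRNA pool, and Gfap 3.26-fold. Their log2 ratios of CPM + 5 were reached by 6.39%, 8.16%, 6.81% and 21.8% of the genes, in that order. With median-of-ratios size factors the Gfap ratio was -0.96, and with the cells of series 21S alone it was -0.57. With dual gRNA, Gfap, Cd44, S100a10 and Socs3 were lower, 4 of 7, and 0 higher, where 36.9% of 11534 were lower and 19.5% higher, and the median was -1.04 for the 7 and -0.43 for all. All 4 were also lower without the highest cells, where 18% of all genes were, against 7.72% higher, and Socs3 was 6.84-fold lower (6.48%). The 2 comparisons share the control gRNA cells. Of the other reactive astrocyte genes 11 of 19 were lower and 2 higher with Sox9 gRNA, and 14 of 21 lower and 4 higher with dual gRNA. By both measures these were 7 lower and 1 higher with Sox9 gRNA, and 8 lower and 2 higher with dual gRNA. Serpina3n was at 12.2 CPM in dual gRNA cells, 49.3 CPM in Sox9 gRNA cells and 228 CPM in control gRNA cells, and Ccnd1 at 9.02, 0 and 165 CPM in the same order. The CD44 ligand osteopontin (Spp1) went the other way with Sox9 gRNA, at 292 CPM in 10 of 16 cells against 0.385 CPM in control gRNA cells. The astrocyte markers themselves summed to 1494 CPM in dual gRNA cells, 7672 CPM in Sox9 gRNA cells and 6142 CPM in control gRNA cells, and microglial markers to 12770, 5618 and 10883 CPM; their part in these values was not tested.

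Dual gRNA and Sox9 gRNA cells of the same day were present in batches 3 and 4. In batch 3, day 7, Vim, Nes, Synm and Cd44 were higher with dual gRNA and S100a10 lower, 4 and 1 of 8, where 21% of 12543 genes were higher and 28.4% lower. The median was 0.94 for the 8 and -0.17 for all. The same 5 calls held without the highest cells, where 8.24% of all genes were higher and 19.1% lower by both measures. Vim was 3.40-fold higher (log2 ratio 1.72, reached by 8.99% of the genes), Nes 58.5-fold (3.01, 1.32%) and Synm 10.7-fold (2.94, 1.44%). Synm, however, was at 0.500 CPM in the 7 cells of series 7ST and 226 CPM in the 7 of 7ST2. Gfap did not differ by 2-fold (-0.25) and Stat3 was at the same level (0.03). Serpina3n was at 1607 CPM in dual gRNA cells and 255 CPM in Sox9 gRNA cells, Osmr at 160 and 35.9 CPM, and of the gp130 list 7 of 14 were higher and 3 lower, 3 and 3 by both measures. In batch 4, day 21, Vim, Cd44 and Stat3 were higher with dual gRNA and Socs3 lower, 3 and 1 of 6, where 32.8% of 10698 genes were higher and 31.5% lower, with medians of 0.82 and 0.10. Vim was again higher, 2.73-fold (1.31, and 1.57 without the highest cells), and Cd44 4.42-fold, while the higher Stat3 was 1 cell at 979.9 CPM (0.64 without the highest cells); 16.3% of all genes were higher and 12.4% lower by both measures. Cd44 was past 2-fold in both batches by pooled reads, but with each cell weighted equally its log2 ratio was 0.08 in batch 3 and 0.41 in batch 4. In batch 3 it had a read in 3 of 14 dual gRNA cells and 9 of 21 Sox9 gRNA cells, and in batch 4 a single cell gave 81.3% of its reads with dual gRNA and 98.4% with Sox9 gRNA. The Vim ratio was short of 2-fold with each cell weighted equally (0.78 in batch 3 and 0.96 in batch 4), with the dual gRNA series 7ST alone in batch 3 (0.65) and with the Sox9 gRNA series 21S2 alone in batch 4 (0.73).

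Between days, control gRNA cells of batch 2 had less of several members at day 21 than at day 7. Vim, Cd44, S100a10 and Socs3 were lower, 4 of 6 tested, and 0 higher, where 43.4% of 10480 genes were lower and 28.8% higher, and the median was -1.35 for the 6 and -0.42 for all. Socs3 had 1 read at day 21 against 5276 at day 7 (log2 ratio -5.86), which 0.115% of the genes reached, and Vim was 6.08-fold lower (-2.54, 15.5%). Both were lower without the highest cells, as was Cd44 (-4.91), where 21.9% of all genes were lower and 9.29% higher by both measures. Gfap was at 1116 CPM at day 21 and 1463 CPM at day 7 (-0.39). Of the gp130 list 8 of 11 were lower and 2 higher, 6 and 0 by both measures. Among the lower genes was Jak1, at 104 CPM at day 21 and 238 CPM at day 7. The small heat shock protein gene Hspb1, a chaperone of filaments, had no read at day 21 and 194 CPM at day 7, and the galectin gene Lgals1 was at 0.0670 and 184 CPM. In batch 4 the Trps1 gRNA cells were of day 7 and the control gRNA cells of day 21, so gRNA and day cannot be told apart. Vim and Nes were higher and Socs3 lower, 2 and 1 of 8, where 28.7% of 11889 genes were higher and 35% lower, and the median was -0.14 for the 8 and -0.18 for all. Vim was 2.84-fold higher (1.46, and 2.77 without the highest cells) where 12.6% of all genes were higher and 16.7% lower by both measures, and Gfap differed little (-0.19). The complement gene C3 was at 0.207 CPM in Trps1 gRNA cells and 419 CPM in control gRNA cells, and of the other reactive astrocyte genes 12 of 21 were lower and 5 higher, 9 and 3 by both measures.

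The lists around each member gave the following counts past 2-fold, with the share of all genes beside them. Of the other intermediate filament proteins, such as the neurofilaments and the nuclear lamins, 6 of 6 tested were lower and 0 higher in dual gRNA cells against control gRNA cells of batch 2, and 3 and 0 by both measures. Of all genes 41.7% were lower and 33.9% higher there, and 14.5% and 11.8% by both measures. In batch 1 the counts were 5 of 6 lower and 0 higher, 4 and 0 by both measures, where 63.8% of all genes were lower with a median of -1.65. By both measures 30.9% of all genes were lower and 4.58% higher. In batch 4 they were 1 lower and 2 higher of 6, where 36.9% of all genes were lower and 19.5% higher. The lamin gene Lmna was at 113 CPM in dual gRNA cells and 249 CPM in control gRNA cells of batch 2. Of the same list 1 of 7 was higher and 1 lower with Trps1 gRNA against no gRNA in batch 5, where 30.3% of all genes were higher and 14.3% lower. The linkers and chaperones of filaments had 1 higher and 1 lower of 6 in that comparison. They had 0 of 6 in either direction with Sox9 gRNA against control gRNA of batch 4, where 23.2% of all genes were higher and 40.7% lower. In control gRNA against no gRNA of batch 1 they had 1 higher and 0 lower of 6, where 37.2% of all genes were higher and 30.1% lower. The crystallin chaperone Cryab was at 336 CPM in dual gRNA cells and 71.0 CPM in Sox9 gRNA cells of batch 3.

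Around Stat3 and Socs3, the other STATs and feedback inhibitors were split. In all, 4 of 13 tested were higher and 4 lower in control gRNA against no gRNA cells of batch 1, and 4 higher and 6 lower of 13 with Sox9 gRNA against control gRNA of batch 4. By both measures these were 3 and 3, and 1 and 4. All genes stood at 37.2% higher and 30.1% lower in the first comparison, and 23.2% higher and 40.7% lower in the second. By both measures all genes stood at 17.6% higher and 17.8% lower in the first, and 8.02% higher and 21.3% lower in the second. With dual gRNA against control gRNA of batch 4, 8 of 13 were lower and 1 higher, with a median of -1.41, and 6 of 9 STAT3 targets were lower and 1 higher. By both measures these were 4 lower and 0 higher, and 4 lower and 1 higher, where 18% of all genes were lower and 7.72% higher. With all cells 36.9% of all genes were lower, with a median of -0.43. With Sox9 gRNA in batch 4, where Stat3 itself was 9.13-fold lower, 2 of 11 STAT3 targets were lower and 3 higher, 2 and 1 by both measures, with a median of -0.02. Of the CD44 ligands and partners, 4 of 7 were lower and 1 higher, 3 and 1 by both measures, with Trps1 gRNA against no gRNA of batch 5, where Cd44 was higher. All genes stood at 14.3% lower and 30.3% higher there, and at 8.84% and 18.9% by both measures. Ezrin was at 116 CPM in Trps1 gRNA cells and 260.0 CPM in no gRNA cells. Of the S100A10 partners and S100 relatives, 6 of 11 were higher and 1 lower, 2 and 1 by both measures, in that comparison, where S100a10 was lower. The same shares of all genes, 30.3% higher and 14.3% lower, apply to them. In control gRNA cells of batch 2, 6 of 10 of that list were lower and 1 higher at day 21 against day 7, also by both measures. All genes stood at 43.4% lower and 28.8% higher, and at 21.9% and 9.29% by both measures. Annexin A2 (Anxa2), which binds S100A10, was at 30.3 CPM at day 21 and 99.8 CPM at day 7. The part of the microglial markers in these lists was not tested.

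The 8 genes were also followed within cells. In batch 1 the median cell had 4 of the 8 at 10 CPM or more in dual gRNA cells, 3 in control gRNA cells and 1 in no gRNA cells, where 10 of 31 had none. It had 2 in control gRNA cells of day 21 and 5 in those of day 7 of batch 2. In batch 4 it had 1 in dual gRNA and in Sox9 gRNA cells and 3 in Trps1 gRNA and control gRNA cells, and it had 2 in each pool of batch 5. Vim was at 10 CPM or more in 43.7% of the 126 Gfap-positive cells and 26.7% of the Gfap-negative cells, and Cd44 in 33.3% and 10.3%. Socs3 was present in 61.7% of the Stat3-positive cells and 28.9% of the Stat3-negative cells. These shares take the astrocytes of all batches, days and gRNAs together, and the part of batch, day and gRNA in them was not tested. Across the cells of a batch, Spearman's rho averaged over the 5 batches was 0.33 for Gfap and Cd44 (0.15 to 0.55), 0.28 for Gfap and Vim (0.14 to 0.49), 0.23 for Stat3 and Socs3 and 0.17 for Gfap and Stat3. The number of genes detected in a cell had a rho of 0.42 with Cd44, 0.40 with Stat3 and 0.28 with Gfap, the first and second above any pair of members printed here. Gfap also had a rho of 0.24 with the oligodendrocyte and with the ependyma markers, and 0.22 with the astrocyte markers. It was 0.20 with those of endothelium and 0.19 with the microglial markers, the last above 0 in 3 of 5 batches. With neuron markers it was 0.05, and with those of mural cells and fibroblasts -0.002. The part of genes per cell in the pairs was not tested, and such weak values in sparse counts are a description only. Among 2568 genes with a read in 30% or more of the astrocytes of each batch, those most like Gfap were Smc6 (0.35), Bsg, Ndufa3, Serf2 and Lgmn, where the median gene was at 0.11. Those most like Vim were Cdkn1a (0.39), the cell cycle inhibitor p21, Acsl4, Vmp1, Arl6ip1 and Ipo7, and those most like Stat3 were Kdm6b (0.44), Bmp2k, Clk1, Tra2a and Aplp2.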

How the data were processed

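The authors deposited counts, as whole numbers of reads for each gene (row) and each cell (column), with a table for every batch. The submitters' processing notes name STAR 2.6.0a, RSEM 1.3.0 and the builds GRCm38 and mm10, with no role given to each. Rows that name no gene, such as totals of unassigned reads, were left out; they held 75.6% of the reads in batch 1, 22.3% in batch 2, 0.00115% in batch 3, 0.379% in batch 4 and 0.137% in batch 5. Batches come from separate tables and were never set against each other by a ratio. No 2 libraries held identical values, and no doublets were removed.

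Counts were summed over the cells of a pool and divided by the pool's reads in genes (CPM). Pooled CPM has an exact Poisson interval and a share of cells an exact Clopper-Pearson interval, both at 95%. A pool with no read was given a floor of 3 counts over the group. The 14 comparisons within a batch used log2 of CPM + 5 over all genes at 5 CPM or more in either pool, with no test, since the labels name no animal. The alternatives were median-of-ratios size factors, the mean of log2 values over cells, a pseudocount of 1 CPM, leaving out the highest cell, cells with 200000 or more reads, no minimum, title series, and shares thinned to 100000 reads or set at 10 CPM. The members and gene lists were chosen with earlier results of these data known. Of each list, up to 4 genes a comparison at 20 CPM or more and with a read in 40% or more of the cells of a pool could be named, and some of these are given. Genes whose pattern is most like Gfap, Vim or Stat3 are the 5 with the highest mean Spearman's rho over the 5 batches. The scripts were tested on simulated data and used Python 3.11.15 with numpy 2.4.6, pandas 2.3.3 and scipy 1.17.1.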

Additional observations from a re-analysis of the deposited data

Results flagged for a closer look

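Dixon's criterion was applied to pools of 4 to 10 libraries on the log2 scale of CPM + 5. By it, the highest or lowest library stood apart from the rest in 9 of 36 sets of values. Its chance rate of about 1 in 20 holds for normally distributed values only. Here many libraries had no read of a gene, and a single library with reads among libraries without any passes at whatever level. The count of sets is therefore a description and cannot be compared with chance. The lowest of the 4 dual gRNA cells of batch 1 had 1.39 CPM of Stat3, where the next had 1080 CPM. Among the 10 control gRNA cells of batch 1, 1 cell had 36.04 CPM of Synm, where the next had 0.816 CPM, and 1 had 263 CPM of S100a10, where the next had 2.07 CPM. Of the 7 control gRNA cells of day 21 in batch 2, 1 had 368 CPM of Cd44 and the next 4.51 CPM. Of the 6 no gRNA cells of batch 3, 1 had 351 CPM of Gfap and the next 10.6 CPM.

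The in-slice controls also held single libraries with reads of the members. Of the 4 of batch 3, 1 library had 135 CPM of Gfap, 1 had 25.5 CPM of Cd44 and 1 had 30.6 CPM of Stat3, with the others at 0. Of the 5 of batch 5, 1 library had 252 CPM of Synm, with the others at 0.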

How the results depend on the processing

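The number of the 8 genes past 2-fold stayed within 1.5 times in the 14 comparisons under size factors, a pseudocount of 1 CPM, no minimum and cells with 200000 or more reads. With each cell weighted equally it was 3 in place of 7 for control gRNA against no gRNA in batch 1, 5 in place of 8 for dual gRNA against no gRNA and 2 in place of 5 for dual gRNA against Sox9 gRNA in batch 3. In batch 4 it was 3 in place of 7 for Sox9 gRNA against control gRNA, 0 in place of 4 for dual gRNA against Sox9 gRNA and 1 in place of 3 for Trps1 gRNA against control gRNA. In batch 5 it was 0 in place of 2 for Sox9 gRNA and 2 in place of 4 for Trps1 gRNA against no gRNA. For dual gRNA against control gRNA in batch 1 it was 3 higher and 0 lower, in place of 0 higher and 4 lower. Without the highest cells it was 4 in place of 7 for control gRNA against no gRNA and 2 in place of 4 for dual gRNA against control gRNA in batch 1, and 4 in place of 7 for Sox9 gRNA against control gRNA in batch 4. With single title series it was 5 in place of 3 for Trps1 gRNA against control gRNA of batch 4 (1 cell of 7T2), and 6 (21T) and 5 (21T2) in place of 3 for Sox9 gRNA against Trps1 gRNA of batch 5. In cells under 1000 CPM of microglia markers, chosen after the data were seen, it was 5 in place of 2 for Sox9 gRNA against no gRNA of batch 5.

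Of 792 values of single genes under an alternative, 323 stayed within the counting interval, 457 left it and 12 of called ratios changed sign. Stat3 in Sox9 gRNA against no gRNA of batch 3 was at 0.44 with cells weighted equally and 0.67 without the highest cells, in place of -1.06. In dual gRNA it was at 0.22 without the highest cells, in place of -1.02. Synm was at -0.57 in place of 1.14 for Sox9 gRNA against no gRNA of batch 3 in cells with few microglial reads, at -0.43 in place of 4.08 for dual gRNA against no gRNA and -1.57 in place of 2.94 against Sox9 gRNA with 7ST alone, and at -0.055 in place of 1.06 for Sox9 gRNA against control gRNA of batch 4 with cells weighted equally. Nes was at -0.12 in place of 4.304 for Trps1 gRNA against control gRNA of batch 4 with 7T2 alone. In batch 5 Cd44 was at -0.79 in place of 2.29 for Sox9 gRNA against no gRNA in cells with few microglial reads. With 21T alone, Gfap was at -1.48 in place of 2.136 and Cd44 at -0.12 in place of 2.89 for Trps1 gRNA against no gRNA, and Gfap was at 2.23 in place of -1.38 for Sox9 gRNA against Trps1 gRNA. The causes were not tested.

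Size factors differed from read totals by up to 1.06 on the log2 scale, for Sox9 gRNA against no gRNA of batch 3. A member had a read in 50% or more of the cells in 48 of 128 pairs of pool and gene, 32 with cells thinned to 100000 reads and 32 at 10 CPM or more. Pooled CPM was 20 or more in 80 of the 128, and in 70 without the highest cells, an alternative chosen after the data were seen. No paired analysis was possible because the labels number cells and not animals, and no test was run.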
